A study of Homo sapiens with 24 samples.

Results

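The amino acid transporters described here are 10 genes of the deposited count table, chosen by symbol: SLC3A2, SLC7A11, SLC7A5, SLC1A5, SLC1A4, SLC38A1, SLC38A2, SLC7A1, SLC6A9 and SLC43A1. They were chosen with earlier results of these data known, so their counts set against all genes are no independent support. All 10 were found among its 23354 genes, and all 10 passed the filter on low counts in both cell lines. The RNA came from MV4-11 and KG-1a, established human cell lines of acute myeloid leukemia (AML) labelled as wild type and grown in medium with fetal bovine serum. Each line was cultured for 8 h or 24 h without drug, with 8CA (8-chloro-adenosine) or with 8AA (8-amino-adenosine), each at 1 μM. Both are analogs of adenosine, with a chlorine (8CA) or an amino group (8AA) added to the base. The 12 groups hold 2 libraries each, replicates A and B, 24 in all, and only the library titles give the hours of the untreated libraries. Nothing in the labels says whether A and B came from separate cultures, so the p-values measure the spread between libraries, which may be technical. No other agent and no engineered allele is named, and each line is a single established line, so the groups stand for these lines only.

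Amino acid transporters of the SLC families carry amino acids across the plasma membrane, and blood cancers depend on them for protein synthesis, glutathione and nucleotides. SLC3A2 (CD98 heavy chain, chromosome 11, 62623484 to 62656355, + strand) is a glycoprotein that brings partner light chains to the cell surface. Its partners include SLC7A5 (LAT1, chromosome 16, 87863629 to 87903100, − strand), which exchanges large neutral amino acids such as leucine and methionine, and SLC7A11 (xCT, chromosome 4, 139085248 to 139163503, − strand), which brings in cystine for glutamate. SLC1A5 (chromosome 19, 47278140 to 47291842, − strand) exchanges glutamine and other neutral amino acids, and SLC1A4 (chromosome 2, 65215579 to 65251000, + strand) alanine, serine and cysteine. SLC38A1 (chromosome 12, 46576841 to 46663208, − strand) and SLC38A2 (chromosome 12, 46751971 to 46766645, − strand) take up glutamine and small neutral amino acids with sodium. SLC7A1 (chromosome 13, 30083551 to 30169825, − strand) carries arginine and lysine, SLC6A9 (chromosome 1, 44457172 to 44497164, − strand) glycine, and SLC43A1 (chromosome 11, 57252004 to 57283192, − strand) large neutral amino acids without exchange. Several of these genes are textbook targets of ATF4, the transcription factor of the integrated stress response, which binds C/EBP-ATF response elements, and SLC7A11 is also a target of NRF2, which binds antioxidant response elements. The positions are those of the table. The labels name the builds hg19 and hg38 without a role, and all 10 spans differ from those of GRCh38.p14.

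Promoter sequence from RefSeq (GRCh38.p14, 250 bases before to 50 after an annotated start) was at hand for 9 of the 10 genes, with 16 starts, and SLC7A11 has no entry. The sequences are shown because the letters searched in them belong to factors whose own RNA is reported below. The C/EBP-ATF response element, searched as TGATGNAA on both strands, was found at 5 of the 16 member starts, in SLC3A2, SLC1A5, SLC1A4, SLC38A1 and SLC7A1, against 3.62% of all 35116 promoters. The antioxidant response element, searched as TGACNNNGC on both strands, was found for 4 of the 9 genes, SLC7A5, SLC3A2, SLC1A5 and SLC7A1, against 16.1% of all 27305 genes, and at 4 of the 16 starts against 13.3% of all promoters. The E-box CACGTG, the same on both strands, was found for 3 of the 9 genes, SLC7A5, SLC1A5 and SLC43A1, against 8.77% of all genes, and at 3 of the 16 starts against 7.26% of all promoters. No 2 of these matches overlap each other. A match is a description of letters and not a bound site, and a window without one says nothing about a factor. Several members are textbook ATF4 targets, and all were chosen with earlier results known, so these shares are no independent support. The lines below read 5′ to 3′ along the gene's strand. Capitals mark the C/EBP-ATF element in the first 5 lines, and the E-box and then the antioxidant element in the last. SLC3A2 is chr11:62881725-62881748 (+, from 27 to 50 bases past the start) and SLC7A1 is chr13:29595663-29595692 (−, from 4 bases before the start). SLC38A1 is chr12:46266512-46266661 (−), SLC1A4 is chr2:64989254-64989403 (+) and SLC7A5 is chr16:87869501-87869650 (−), each of 150 bases that end just past a start. SLC1A5 is chr19:46784815-46785064 (−), the 250 bases before 1 of its 3 starts, with the element at −97 to −90 from it.
SLC3A2: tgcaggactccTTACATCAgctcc
SLC7A1: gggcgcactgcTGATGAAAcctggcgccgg
SLC38A1: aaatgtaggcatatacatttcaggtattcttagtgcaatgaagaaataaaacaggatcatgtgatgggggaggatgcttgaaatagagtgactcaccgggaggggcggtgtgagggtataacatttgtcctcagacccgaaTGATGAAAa
SLC1A4: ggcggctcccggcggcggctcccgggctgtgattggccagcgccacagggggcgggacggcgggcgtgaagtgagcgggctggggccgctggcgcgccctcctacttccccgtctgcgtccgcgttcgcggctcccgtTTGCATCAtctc
SLC1A5: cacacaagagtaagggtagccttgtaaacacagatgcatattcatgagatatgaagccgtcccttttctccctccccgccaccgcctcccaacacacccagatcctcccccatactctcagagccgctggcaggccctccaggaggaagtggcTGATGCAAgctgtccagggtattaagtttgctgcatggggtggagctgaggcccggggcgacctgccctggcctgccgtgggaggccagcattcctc
SLC7A5: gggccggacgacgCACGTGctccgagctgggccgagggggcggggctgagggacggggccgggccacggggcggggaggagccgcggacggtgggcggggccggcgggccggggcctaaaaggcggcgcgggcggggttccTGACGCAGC

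Libraries held 18633963 to 24520078 counts. The levels below are TMM-normalized CPM, read counts scaled to the library total with the trimmed mean of M-values, within a cell line. The replicates of a group differed by more than sampling noise, with a chi-square per degree of freedom from 1.43 to 5.20, and of 12.3 in the 24 h 8AA libraries of KG-1a. The 10 myeloid markers summed to 3956.7 to 4925.7 CPM in MV4-11 and to 1211.2 to 1541.7 CPM in KG-1a. Of these markers, MV4-11 had FLT3 between 414.8 and 595.8 CPM, CD33 between 101.9 and 134.9 CPM, and CD34 no higher than 0.165 CPM. KG-1a had CD34 between 339.7 and 656.4 CPM, but FLT3, CD33 and LYZ were no higher than 1.38, 1.06 and 1.39 CPM, and CD3D, a T cell marker, lay between 181.3 and 272.8 CPM, against 0 in MV4-11. The 5 T and NK cell markers of the table summed to 365.1 and 379.7 CPM untreated, 298.3 and 286.8 CPM with 8CA and 422.6 and 346.3 CPM with 8AA in KG-1a at 24 h, and to 12.4 to 18.8 CPM in MV4-11. The 6 epithelial and stromal markers summed to 1.88 to 2.71 CPM in KG-1a with 8AA and 0.156 to 0.353 CPM in the other KG-1a groups, nearly all of it COL3A1, with EPCAM, KRT19, CDH1 and DCN at 0. The part of these markers in the results was not tested. CPM are shares of a library, so all levels and changes below are relative to the other RNA of that library. They show neither the amount of RNA per cell nor the number of cells. Calls required an adjusted p below 0.05 in edgeR's quasi-likelihood test, fitted to the 12 libraries of a line (all 24 for differences between the lines) and adjusted over all genes tested. Each gene has a shared spread for all groups of a fit. SEs, intervals and p-values therefore carry the wider gap of the KG-1a 24 h 8AA replicates only as a part of that shared spread.

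Untreated cells of both lines carried most of these transporters at 19.2 CPM per kb of exon or more at 24 h. SLC7A11 and SLC38A1 set the lines apart. Per kb of exon, the scale on which genes can be compared, SLC7A5 led in MV4-11 at 24 h with 128.2 ± 1.19 CPM per kb (SD, n = 2). SLC1A5 followed at 94.3 ± 0.733 and SLC3A2 at 71.5 ± 1.72 CPM per kb (SD, n = 2). SLC38A2 (45.0 ± 2.27), SLC7A1 (42.5 ± 1.04), SLC43A1 (30.6 ± 0.679) and SLC1A4 (27.8 ± 0.288 CPM per kb, SD, n = 2) formed a middle group, in which SLC38A2 and SLC7A1 overlapped within their SD. SLC7A11 at 1.21 ± 0.144, SLC38A1 at 0.278 ± 0.0567 and SLC6A9 at 0.218 ± 0.0238 CPM per kb (SD, n = 2) were far below the others, and the last 2 overlapped within their SD. In KG-1a at 24 h the top of the order was shared by SLC1A5 (91.4 ± 1.58), SLC3A2 (88.7 ± 1.33) and SLC7A5 (86.9 ± 2.996 CPM per kb, SD, n = 2), each of which overlapped its neighbour within the SD. SLC38A1 came next at 67.1 ± 1.45 CPM per kb, above SLC43A1 (57.7 ± 1.79), SLC7A1 (53.2 ± 0.0824) and SLC38A2 (49.1 ± 0.644), and SLC1A4 (19.2 ± 0.0391), SLC7A11 (10.3 ± 0.586) and SLC6A9 (0.177 ± 0.00723 CPM per kb, SD, n = 2) closed the order.

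**Figure D1:**
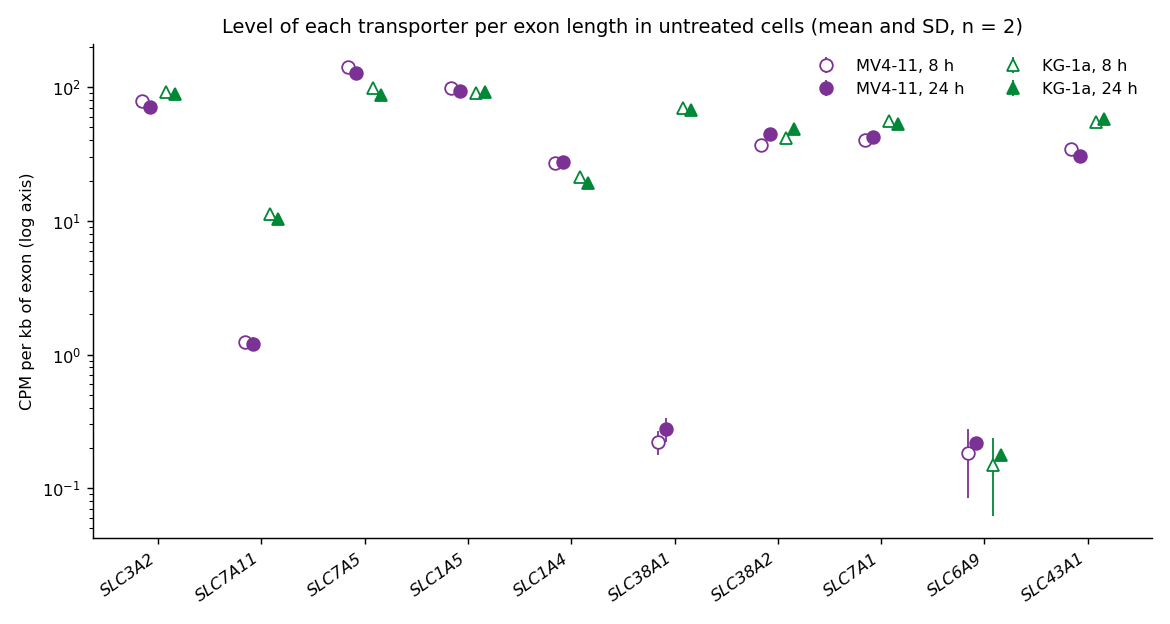
Level of each transporter in untreated cells, in CPM per kb of exon on a log axis (mean and SD, n = 2), for MV4-11 (circles) and KG-1a (triangles) at 8 h (open) and 24 h (filled). SLC38A1 is at 0.278 in MV4-11 and 67.1 in KG-1a at 24 h, SLC7A11 at 1.21 and 10.3, and SLC6A9 is low in both.

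SLC38A1, the glutamine carrier, was at 2.46 and 1.85 CPM (8 h) and at 2.30 and 3.07 CPM (24 h) in untreated MV4-11, and at 660.5, 696.5, 658.1 and 638.3 CPM in untreated KG-1a. The lines do not come near each other for this gene. Over both hours, the log2 difference of MV4-11 minus KG-1a was −8.02 (SE 0.0681, adjusted p = 1.11e-30) for SLC38A1 and −3.04 (SE 0.0926, adjusted p = 6.83e-20) for SLC7A11. In that comparison, 3 members were called higher in MV4-11 (SLC7A5, SLC1A4 and SLC1A5, at 0.63, 0.53 and 0.18) and 5 lower (also SLC43A1, SLC7A1 and SLC3A2, at −0.71, −0.29 and −0.18), where 43.1% of all genes were called higher and 44.3% lower. SLC38A2 (−0.06, adjusted p = 0.24) and SLC6A9 (0.41, adjusted p = 0.183) were not called. SLC6A9 was called without KG-1a untreated 8 h replicate A (0.82) and without MV4-11 untreated 8 h replicate A (0.63). Untreated cells at 24 h and at 8 h differed in few members: SLC38A2 was higher at 24 h in MV4-11 (log2 0.29, adjusted p = 0.00794, where 5.54% of genes were called), and in KG-1a SLC38A2 was higher (0.24, adjusted p = 0.0464) and SLC7A5 lower (−0.19, adjusted p = 0.049, where 4.45% of genes were called). The KG-1a calls were both lost without any 1 of the 4 libraries (0.19 to 0.30 for SLC38A2, −0.23 to −0.13 for SLC7A5), and the MV4-11 call without untreated replicate B of 24 h (0.23) or of 8 h (0.24).

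**Figure D2:**
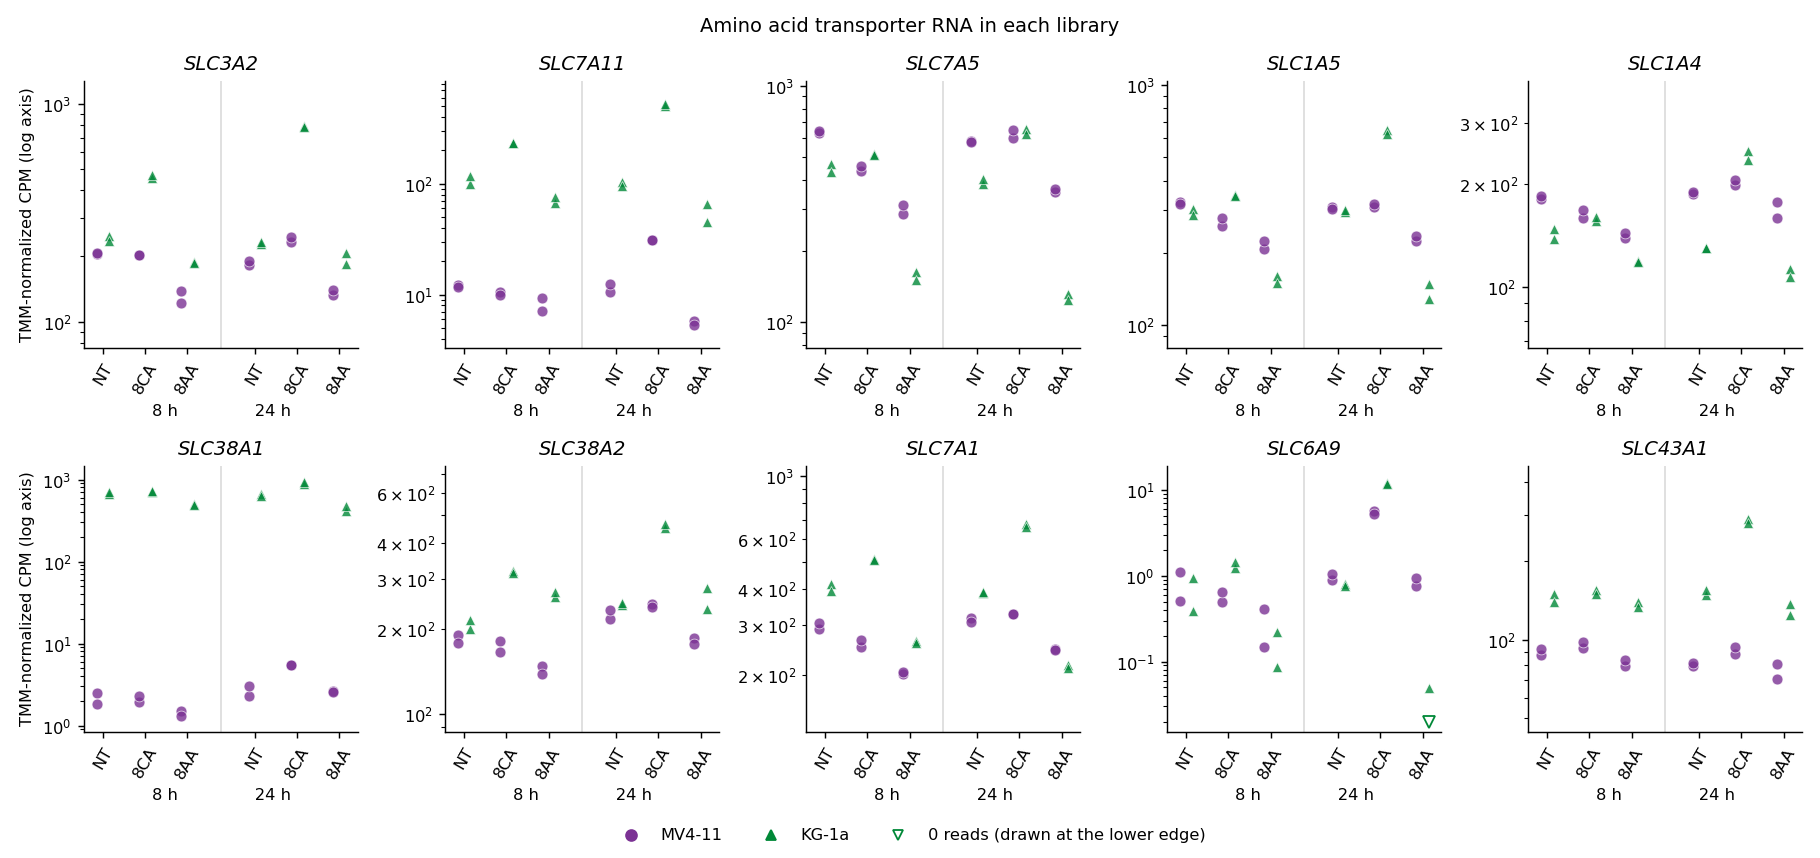
TMM-normalized CPM of each transporter in each of the 24 libraries, on log axes, for MV4-11 (circles) and KG-1a (triangles), untreated (NT) or with 8CA or 8AA, at 8 h and 24 h. In each panel the 8AA libraries lie below the 8CA libraries of the same line and hour, and the open triangle marks the KG-1a library with 0 SLC6A9 reads.

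8CA raised the transporters in KG-1a. After 24 h all 10 were called higher, by log2 fold changes from 0.48 to 3.91 with a median of 0.91, and after 8 h 4 of them were (SLC7A11, SLC3A2, SLC38A2 and SLC7A1) and 0 lower. At 24 h 23.4% of all genes were called higher and 24% lower. At 8 h it was 0.7% higher and 0.181% lower. The adjusted p of the called members reached 4.79e-06 at 24 h and 0.000738 at 8 h.

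SLC3A2, the heavy chain, was at 228.4 and 233.3 CPM in untreated KG-1a at 24 h and at 794.2 and 778.3 CPM with 8CA. It was already at 455.2 and 469.0 CPM with 8CA at 8 h, where untreated cells had 246.4 and 235.6 CPM. The groups stand apart at both hours, and the log2 fold change was 0.94 (SE 0.051) at 8 h and 1.77 (SE 0.0515) at 24 h. SLC7A11, the cystine exchanger, went from 102.9 and 94.9 CPM untreated to 499.4 and 529.3 CPM with 8CA at 24 h, a 5.20-fold difference (log2 2.38, SE 0.112). At 8 h it was at 99.3 and 117.0 CPM untreated and at 234.2 and 233.9 CPM with 8CA (log2 1.11, SE 0.111). SLC7A5, the other light chain, moved less: it had 384.2 and 403.4 CPM untreated and 653.6 and 627.2 CPM with 8CA at 24 h (log2 0.70, SE 0.0504), and at 8 h its log2 fold change of 0.19 was not called (adjusted p = 0.0885), though both 8CA libraries lay above both untreated ones. Per exon length, the ratio of SLC7A11 to SLC7A5 was 0.126 and 0.111 in the untreated 24 h libraries and 0.359 and 0.397 in the 8CA libraries.

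Glutamine and neutral amino acid carriers followed in KG-1a. SLC1A5 was at 294.4 and 301.7 CPM untreated and at 651.2 and 626.9 CPM with 8CA at 24 h (log2 1.10, SE 0.058). SLC1A4 was at 130.41 and 130.04 CPM untreated and 247.8 and 234.7 CPM with 8CA (log2 0.89, SE 0.0494). The 24 h levels with 8CA were 2.14 and 1.85 times the untreated ones, and at 8 h neither was called (0.23 and 0.14, adjusted p = 0.0806 and 0.218). The 8 h changes of SLC1A5 and SLC7A5 were called with only the 6 libraries of the line and hour in the fit (adjusted p = 0.00156 and 0.0067) and with no filter on low counts (0.00315 and 0.019). SLC38A2, which was among the early risers, was at 199.96 and 214.75 CPM untreated and 318.7 and 314.0 CPM with 8CA at 8 h (log2 0.61, SE 0.0633), and at 242.4 and 246.9 against 453.3 and 467.9 CPM at 24 h (log2 0.91, SE 0.0627). SLC38A1, already abundant in this line, changed least, from 658.1 and 638.3 CPM to 889.1 and 925.4 CPM at 24 h (log2 0.48, SE 0.0561). Both SLC38 genes kept their 24 h groups apart, with 95% intervals of 0.37 to 0.60 for SLC38A1 and 0.78 to 1.05 for SLC38A2.

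The carriers of arginine, large neutral amino acids and glycine were also higher with 8CA in KG-1a. SLC7A1 had 417.8 and 394.3 CPM untreated and 511.1 and 504.2 CPM with 8CA at 8 h (log2 0.32, SE 0.0417), and 389.4 and 390.3 against 677.1 and 660.8 CPM at 24 h (log2 0.78, SE 0.0418). SLC43A1 had 148.1 and 154.7 CPM untreated and 289.6 and 279.5 CPM with 8CA at 24 h (log2 0.91, SE 0.0539), and was not called at 8 h (0.08, adjusted p = 0.615). SLC6A9, the glycine transporter, showed the greatest fold difference of the 10 from a very low level: 16 and 14 reads (0.807 and 0.761 CPM) untreated and 256 and 237 reads (11.9 and 11.8 CPM) with 8CA at 24 h (log2 3.91, SE 0.226). At 8 h SLC6A9 had 17 and 8 reads untreated and 26 and 28 with 8CA, which was not called (log2 1.05, adjusted p = 0.215). SLC6A9 overlaps CCDC24 on the opposite strand, which had 11 to 59 reads per library. It also overlaps LOC100133331 on its own strand (88 to 249 reads, from a span listed over much of chromosome 1) and LOC100132062 on the opposite strand (0 to 4 reads). How reads in such overlaps were counted was not stated, and SLC6A9 levels are uncertain to that extent. No call of 8CA in KG-1a was lost when any 1 library was left out.

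In MV4-11 the same drug called fewer of these genes, and in opposite directions at 8 h and 24 h. At 8 h 3 members were called lower and 0 higher (5.77% and 4.58% of all genes), and at 24 h 5 were called higher and 0 lower (21.2% and 22.7% of all genes). The members' median log2 fold change was −0.18 at 8 h and 0.14 at 24 h. Over all genes tested, the median lay between −0.01 and 0.04 in every comparison reported here.

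At 8 h the genes called lower with 8CA in MV4-11 were SLC7A5, at 632.6 and 645.4 CPM untreated and 434.0 and 458.5 CPM with 8CA (log2 −0.52, SE 0.049, adjusted p = 2.79e-05), SLC1A5 (−0.26, SE 0.0499, adjusted p = 0.0039) and SLC7A1 (−0.20, SE 0.0429, adjusted p = 0.00753). SLC1A5 had 326.1 and 319.7 CPM untreated and 257.8 and 280.0 CPM with 8CA. SLC7A1 had 290.5 and 303.9 CPM untreated and 251.5 and 264.8 CPM with 8CA. In each of the 3 genes both treated libraries lay below both untreated ones. The SLC7A1 call was lost without 8CA replicate A or untreated replicate B (−0.17 in each case), and SLC1A4 (−0.16, adjusted p = 0.0574) was called with DESeq2's size factors or with no filter (−0.17 in each case). SLC3A2 (−0.02, adjusted p = 0.869) and SLC7A11 (−0.22, adjusted p = 0.273) were not called.

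At 24 h the genes called higher with 8CA in MV4-11 were led by the 3 that are scarce in this line. SLC6A9 went from 19 and 23 reads (0.890 and 1.04 CPM) to 142 and 121 reads (5.66 and 5.22 CPM), a log2 fold change of 2.49 (SE 0.252, adjusted p = 1.81e-06). SLC7A11 went from 10.6 and 12.6 CPM to 31.4 and 31.2 CPM (log2 1.43, SE 0.102, adjusted p = 4.76e-08). SLC38A1 went from 2.30 and 3.07 CPM to 5.54 and 5.44 CPM (log2 1.03, SE 0.169, adjusted p = 0.000155). The groups did not overlap for any of the 3. SLC3A2 rose from 182.9 and 189.3 CPM to 231.8 and 245.2 CPM (log2 0.36, SE 0.0558, adjusted p = 0.000101), and SLC43A1 from 79.1 and 81.6 CPM to 88.2 and 93.6 CPM (log2 0.18, SE 0.0619, adjusted p = 0.0301). The SLC43A1 call was lost without 8CA replicate B (0.13) or untreated replicate A (0.15) or B (0.20). The log2 fold changes of SLC7A5 (0.11), SLC1A4 (0.10), SLC7A1 (0.08), SLC38A2 (0.10) and SLC1A5 (0.03) were not called, but scaling by library size only or by the upper quartile called SLC7A5, SLC1A4 and SLC7A1 higher as well, 8 members in all.

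**Figure D3:**
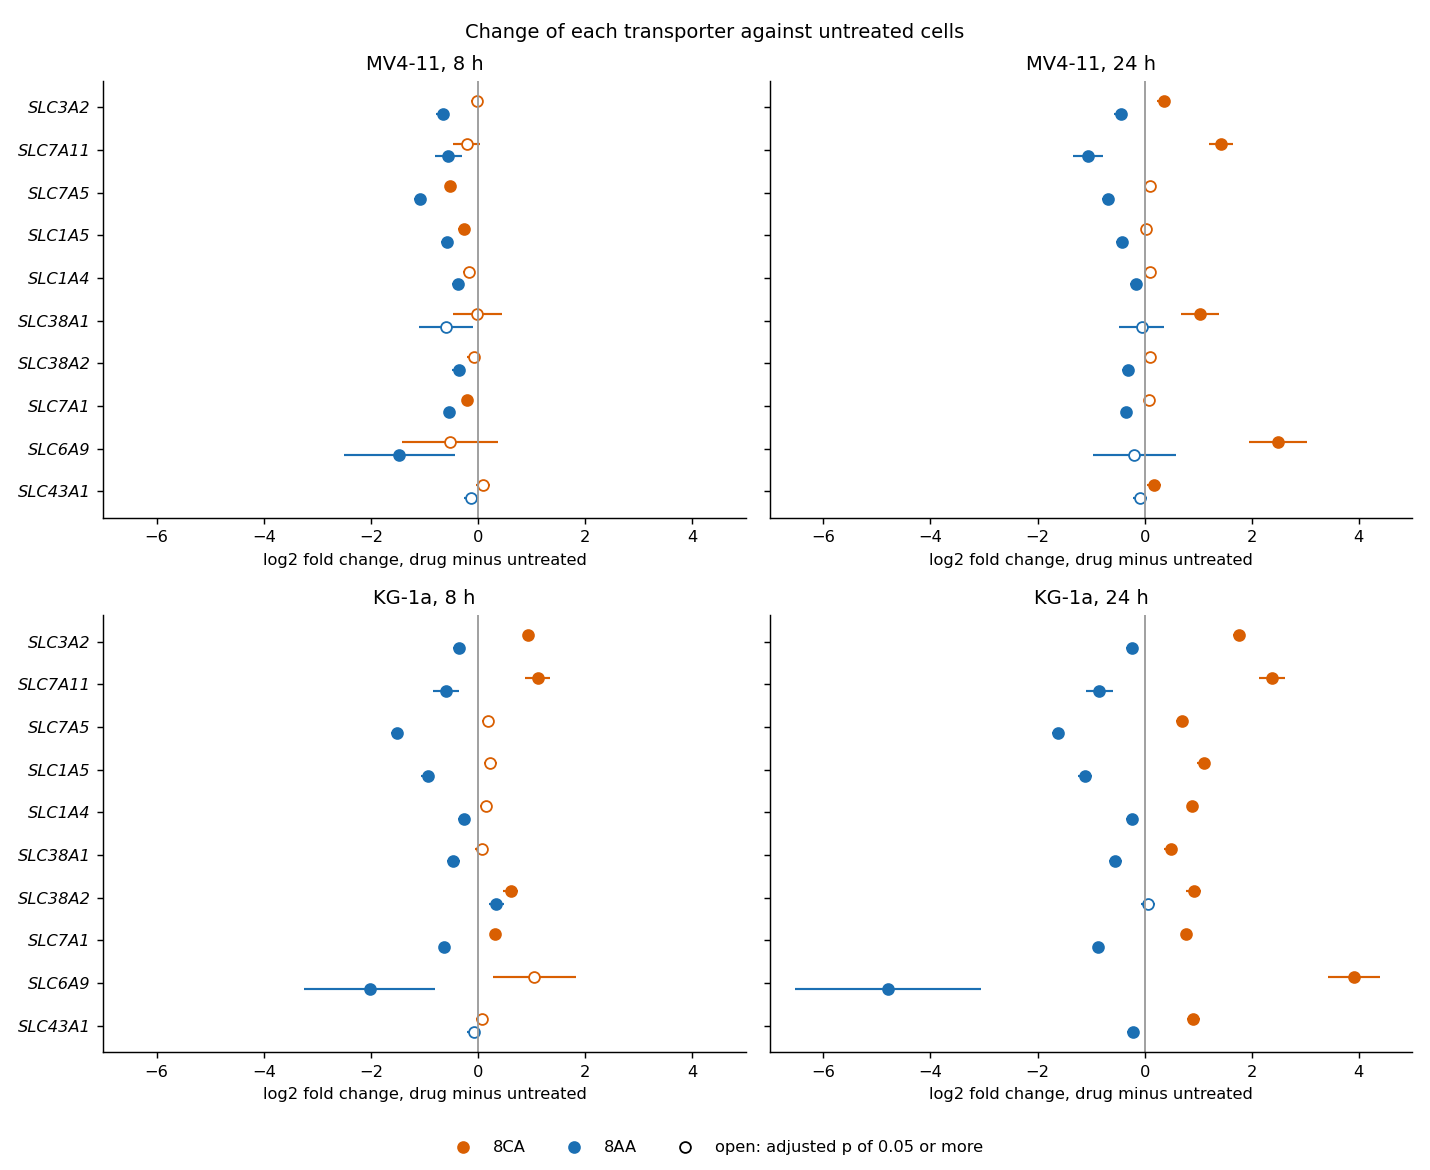
Log2 fold change of each transporter with 8CA or 8AA against untreated cells of the same line and hour (points), with 95% intervals (bars). Filled points passed the adjusted p of 0.05. In KG-1a at 24 h all 8CA points lie right of 0 (0.48 to 3.91) and the 8AA points lie left of 0 except SLC38A2 at 0.07. The 8AA value of SLC6A9 in KG-1a at 24 h rests on 0 and 1 reads, and its bar is narrower than the exact counting interval (ratio 0.000706 to 0.173).

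8AA lowered the transporters in both lines. In KG-1a 8 members were called lower and 1 higher at 8 h (18% and 16.7% of all genes), and 9 lower and 0 higher at 24 h (26.6% and 25.4% of all genes). In MV4-11 8 were called lower and 0 higher at 8 h (15.6% and 13.6% of all genes), and 7 lower and 0 higher at 24 h (15.3% and 13.9% of all genes). The members' median log2 fold change was −0.53 and −0.70 in KG-1a and −0.57 and −0.33 in MV4-11. The 8CA and the 8AA comparisons of a line and hour share their untreated libraries.

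SLC7A5, the leucine and methionine exchanger, was lowered most in KG-1a among the abundant members. It had 465.0 and 430.9 CPM untreated and 162.4 and 151.3 CPM with 8AA at 8 h, and 384.2 and 403.4 CPM untreated and 131.1 and 124.8 CPM with 8AA at 24 h. Treated KG-1a cells held 0.350 and 0.325 times the untreated level at 8 h and 24 h (log2 −1.51, SE 0.0524, and −1.62, SE 0.0531). In MV4-11 it had 287.9 and 311.6 CPM with 8AA at 8 h (log2 −1.09, SE 0.0497) and 353.9 and 366.4 CPM at 24 h against 584.8 and 577.1 CPM untreated (log2 −0.69, SE 0.0492). The adjusted p of these 4 changes was at most 3.12e-07.

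SLC3A2 had smaller fold changes than SLC7A5 in all 4 comparisons, and SLC7A11 in all but MV4-11 at 24 h. SLC3A2 in KG-1a had 188.9 and 185.3 CPM with 8AA at 8 h (log2 −0.36, SE 0.0517) and 205.9 and 183.8 CPM at 24 h (log2 −0.24, SE 0.0517). In MV4-11 it had 121.5 and 139.1 CPM at 8 h (log2 −0.65, SE 0.0571) and 132.5 and 140.3 CPM at 24 h (log2 −0.45, SE 0.0571). All 4 were called, and the treated libraries lay below the untreated ones. SLC7A11 in KG-1a had 67.6 and 75.5 CPM with 8AA at 8 h (log2 −0.60, SE 0.116) and 45.1 and 65.4 CPM at 24 h (log2 −0.85, SE 0.119), and the wide gap between the 24 h replicates leaves its ratio to SLC7A5 per exon length at 0.162 and 0.246. In MV4-11 SLC7A11 had 9.29 and 7.18 CPM at 8 h (log2 −0.55, SE 0.122) and 5.83 and 5.30 CPM at 24 h (log2 −1.06, SE 0.130). When 8AA replicate B was left out, its 8 h call in MV4-11 was lost (−0.37, adjusted p = 0.0568).

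SLC1A5 and SLC1A4 were called lower in all 4 comparisons of 8AA, by unequal amounts. SLC1A5 in KG-1a had 159.1 and 149.2 CPM with 8AA at 8 h and 147.7 and 128.1 CPM at 24 h (log2 −0.94, SE 0.0596, and −1.11, SE 0.060). In MV4-11 it had 206.3 and 223.6 CPM at 8 h and 223.7 and 234.4 CPM at 24 h (log2 −0.59, SE 0.0502, and −0.42, SE 0.0501). SLC1A4, by contrast, changed by −0.27 and −0.24 in KG-1a and by −0.37 and −0.16 in MV4-11. Its smallest change, in MV4-11 at 24 h, was from 186.6 and 189.3 CPM to 158.9 and 177.0 CPM (adjusted p = 0.0269). That call was lost without 8AA replicate A (−0.09), untreated replicate A (−0.18) or untreated replicate B (−0.15), and when scaled by library size only (−0.11) or the upper quartile (−0.13).

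SLC38A2 was the exception in KG-1a. With 8AA at 8 h it had 257.6 and 268.4 CPM, above both untreated libraries at 199.96 and 214.75 CPM (log2 0.34, SE 0.0633, adjusted p = 0.000643). At 24 h it had 235.2 and 278.2 CPM with 8AA against 242.4 and 246.9 CPM untreated, and the groups overlapped (log2 0.07, 95% interval −0.07 to 0.20, adjusted p = 0.38). Without 8AA replicate A the 24 h value was 0.19 and called (adjusted p = 0.000839). In MV4-11 SLC38A2 was lower at both hours, at 148.5 and 138.3 CPM (log2 −0.36, SE 0.0572) and at 185.3 and 176.8 CPM (log2 −0.31, SE 0.0562). SLC38A1 in KG-1a was lowered to 496.7 and 487.8 CPM at 8 h and to 412.0 and 475.7 CPM at 24 h (log2 −0.46, SE 0.0563, and −0.55, SE 0.0565). In MV4-11, where it had 31 and 32 reads with 8AA at 8 h and 59 and 54 at 24 h, it was not called (−0.60, adjusted p = 0.068, and −0.06, adjusted p = 0.85). The 8 h value was called without untreated replicate B (−0.80, adjusted p = 0.0494).

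SLC7A1 was called lower in all 4 comparisons of 8AA. It was at 263.7 and 258.5 CPM (8 h) and 216.8 and 211.6 CPM (24 h) in KG-1a, changes of −0.64 (SE 0.0423) and −0.86 (SE 0.0427), and at 201.9 and 205.2 CPM and 247.3 and 244.1 CPM in MV4-11, changes of −0.55 (SE 0.0432) and −0.34 (SE 0.0428). SLC43A1 was called in 1 of the 4, KG-1a at 24 h, 136.5 and 124.5 CPM with 8AA against 148.1 and 154.7 CPM untreated (log2 −0.21, SE 0.055, adjusted p = 0.00417), and it was lost when scaled by library size only (−0.12). SLC6A9 was near the limit of counting. In KG-1a it had 0 and 1 reads with 8AA at 24 h against 16 and 14 untreated, a ratio of pooled reads per scaled library of 0.0288 (exact 95% counting interval 0.000706 to 0.173), and this change was called (adjusted p = 0.000145). At 8 h it had 5 and 2 reads with 8AA in KG-1a (log2 −2.03, adjusted p = 0.0127) and 3 and 10 in MV4-11 (log2 −1.47, adjusted p = 0.0329), both called lower. The KG-1a call was lost without 8AA replicate B (−1.50) or untreated replicate A (−1.30), the MV4-11 call without 8AA replicate A (−0.97) or untreated replicate B (−0.77) or with only the 6 libraries of that line and hour in the fit (−1.47), and at 24 h in MV4-11 it was not called (17 and 20 reads with 8AA, −0.19, adjusted p = 0.736).

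At the same dose, line and hour the effects of the analogs on these genes differed. Whether the same dose acts with the same strength for both was not tested. In all 4 comparisons of 8AA with 8CA and for all 10 members, 40 pairs in all, both 8AA libraries lay below both 8CA libraries. The same held for 25.2% (8 h) and 28.2% (24 h) of all genes tested in MV4-11 and for 34.7% and 33.2% in KG-1a. Of the 40 differences 37 were called lower with 8AA, 0 higher and 3 not called. In MV4-11 it was 7 of 10 at 8 h (3.7% of all genes lower and 2.96% higher) and 10 at 24 h (9.48% lower and 11.7% higher). In KG-1a it was 10 at 8 h (15.8% lower and 14.7% higher) and 10 at 24 h (21.7% lower and 20.3% higher). The median log2 difference, 8AA minus 8CA, was −0.34 and −0.63 in MV4-11 and −1.06 and −1.83 in KG-1a. Among 7 other plasma membrane transporters tested in MV4-11, 0 were called higher and 1 lower at 8 h, and 2 higher and 0 lower at 24 h. Among 5 tested in KG-1a it was 1 higher and 1 lower at either hour. The members were chosen with earlier results of these data known, so their counts are no independent support.

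In KG-1a at 24 h the differences ran from −0.84 for SLC38A2 (SE 0.0623) to −3.23 for SLC7A11 (SE 0.118) among the members with more than a few reads, with SLC7A5 at −2.32 (SE 0.0536), SLC1A5 at −2.21 (SE 0.0606) and SLC3A2 at −2.01 (SE 0.0519). SLC6A9 had 1 read in the 8AA libraries together and 493 in the 8CA libraries, a ratio of 0.00191 (exact 95% counting interval 4.81e-05 to 0.0107). The adjusted p of these 10 calls was at most 4.59e-08. In MV4-11 at 24 h SLC6A9 (−2.68, SE 0.258) and SLC7A11 (−2.49, SE 0.114) differed most, and SLC1A4 (−0.26, SE 0.0516) and SLC43A1 (−0.27, SE 0.0621) least. The summed level of the 10 members at 24 h was 2579 and 2594 CPM untreated, 5167 and 5142 CPM with 8CA and 1644 and 1699 CPM with 8AA in KG-1a. In MV4-11 it was 1890 and 1898, 2046 and 2117, and 1382 and 1428 CPM in the same order. At 24 h the sums of the drug groups thus lay on either side of the untreated sums in both lines. At 8 h this held in KG-1a only. In MV4-11 at 8 h both drug sums were lower, with 1926.7 and 1945.2 CPM untreated, 1591.5 and 1650.2 CPM with 8CA and 1195.3 and 1253.9 CPM with 8AA.

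The 3 differences that were not called were in MV4-11 at 8 h: SLC7A11 at −0.34 (95% interval −0.60 to −0.08, adjusted p = 0.122), SLC38A1 at −0.58 (−1.08 to −0.09, adjusted p = 0.159) and SLC6A9 at −0.95 (−2.07 to 0.18, adjusted p = 0.328). These intervals allow differences as large as those called in other members. The MV4-11 8 h count fell to 4 without 8AA replicate B and with only the 6 libraries of that line and hour in the fit. Calls lost there without 1 library were SLC1A4 (8AA replicates A, −0.19, and B, −0.23, and 8CA replicate B, −0.17), SLC38A2 (8AA replicate B, −0.23, and 8CA replicate A, −0.21) and SLC43A1 (any 1 of the 4, −0.26 to −0.19), and SLC7A11 was called without 8AA replicate A (−0.53). SLC43A1 was also lost in MV4-11 at 24 h without 8AA replicate A (−0.17) or 8CA replicate B (−0.22) and in KG-1a at 8 h without any 1 of the 4 libraries (−0.19 to −0.12), where SLC38A2 was lost without 8AA replicate A (−0.24).

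**Figure D4:**
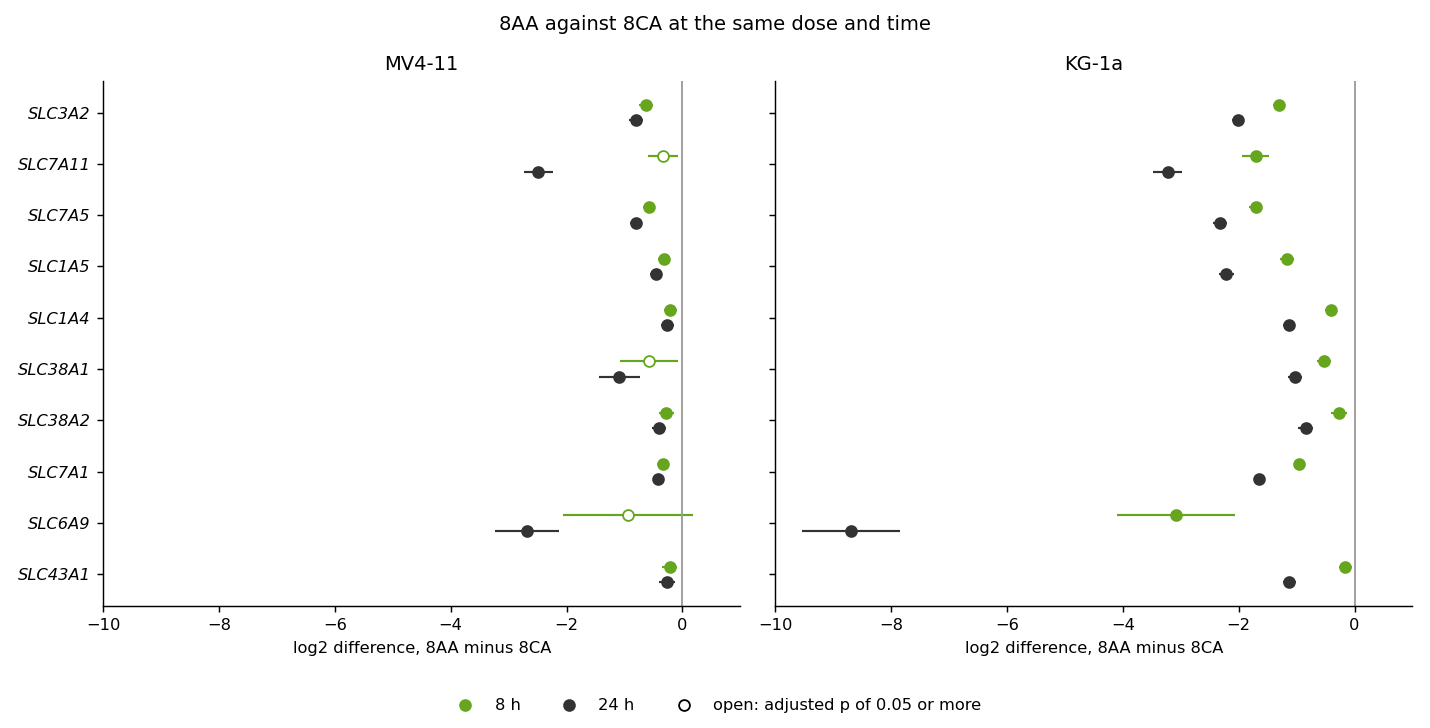
Log2 difference of 8AA minus 8CA for each transporter at 8 h and 24 h (points) with 95% intervals (bars), in MV4-11 and KG-1a. Filled points passed the adjusted p of 0.05. All 40 points lie left of 0, and the 24 h value of SLC6A9 in KG-1a rests on 1 read with 8AA. Its bar is narrower than the exact counting interval of that ratio (4.81e-05 to 0.0107).

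The log2 change with 8CA was more positive at 24 h than at 8 h for most members in both lines. In KG-1a this was a larger rise, while in MV4-11 SLC7A5, SLC1A5 and SLC7A1 were lower at 8 h and not called at 24 h. The change against untreated cells was higher at 24 h than at 8 h for all 10 members in KG-1a (23.9% of all genes differed in either direction), by 0.30 (SLC38A2) to 2.86 (SLC6A9) on the log2 scale. In MV4-11 it was higher for 8 members (16.3% of all genes), with SLC7A11 at 1.64 (SE 0.156) and SLC7A5 at 0.63 (SE 0.069), where SLC38A2 (0.18, adjusted p = 0.13) and SLC43A1 (0.09, adjusted p = 0.542) were not called. The KG-1a call of SLC38A2 was lost without any 1 of 7 of the 8 libraries, all but untreated 8 h replicate A (0.23 to 0.31). In MV4-11 SLC1A4 was lost without 8CA replicate B or either untreated replicate of 24 h, or without 8CA replicate A or untreated replicate B of 8 h (0.22 to 0.27), and SLC38A1 without replicate A of any of the 4 groups (0.83 to 1.03).

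In their response to 8AA, 3 member values differed between hours. In MV4-11 SLC7A5 alone was called (0.40 higher at 24 h, SE 0.0695, adjusted p = 0.00563, where 4.63% of all genes were called), and without 8AA 8 h replicate B SLC3A2 (0.31) and SLC7A11 (−0.69) were called too. In KG-1a 2 of 10 were called, SLC38A2 (−0.27, SE 0.0893, adjusted p = 0.0437) and SLC7A1 (−0.23, SE 0.0598, adjusted p = 0.0156). This is near the share of all genes called there, 18.3%. Both calls were lost under upper-quartile scaling (−0.21 and −0.16). SLC38A2 was also lost in DESeq2's Wald test or using its size factors (−0.26 in each case). The same held when every library needed at least 10 counts (−0.26) and when library totals alone set the scale (−0.21). SLC7A11 was gained with no filter on low counts (−0.26). The KG-1a count was 4 without 8AA 24 h replicate A, 5 without 8AA 24 h replicate B, 0 without 8AA 8 h replicate A and 1 without any other single library.

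The lines differed in how far 8CA moved these genes. At 8 h the 8CA response of 7 members was lower in MV4-11 than in KG-1a (1.15% of all genes differed in either direction), with SLC7A11 at −1.32 (SE 0.198), SLC3A2 at −0.95 (SE 0.0805), SLC7A5 at −0.70 (SE 0.0741) and SLC38A2 at −0.68 (SE 0.0892) on the log2 scale. At 24 h all 10 differed (11.2% of all genes), 9 of them lower in MV4-11, such as SLC3A2 at −1.39 (SE 0.0802) and SLC1A5 at −1.05 (SE 0.0811), and SLC38A1 higher at 0.57 (SE 0.168, adjusted p = 0.0298). With 8CA at 24 h SLC38A1 was still at 5.54 and 5.44 CPM in MV4-11 and at 889.1 and 925.4 CPM in KG-1a, so its larger fold change in MV4-11 was on a far lower level. SLC38A1 was lost at 24 h without MV4-11 8CA replicate A or B, KG-1a 8CA replicate A, or untreated replicate A of either line (0.38 to 0.58). SLC6A9 was lost there without any 1 library but MV4-11 8CA replicate A (−1.50 to −1.28) and by DESeq2's Wald test (adjusted p = 0.0654), and SLC1A4 at 8 h without any 1 but KG-1a untreated replicate A (−0.34 to −0.26).

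The 8AA response differed between the lines in fewer members. At 8 h 3 were called (11.1% of all genes): SLC7A5 (0.46, SE 0.0754) and SLC1A5 (0.40, SE 0.0826) were lowered less in MV4-11 and SLC38A2 (−0.66, SE 0.0895) was lower there. At 24 h 5 were called (22.3% of all genes): SLC7A5 (0.95, SE 0.0758), SLC1A5 (0.71, SE 0.0829), SLC7A1 (0.54, SE 0.0592), SLC6A9 and again SLC38A2 (−0.36, SE 0.0886). Under 8AA SLC6A9 had 17 and 20 reads in MV4-11, but 0 and 1 in KG-1a (adjusted p = 0.00132). SLC1A5 at 8 h was lost without KG-1a 8AA replicate B (0.28) or untreated replicate A (0.28). SLC3A2, not called at 8 h (−0.25, adjusted p = 0.0511), was called without KG-1a 8AA replicate A (−0.31) or B (−0.33), KG-1a untreated replicate A (−0.35) or MV4-11 8AA replicate B (−0.36). With all libraries it was also called by DESeq2's Wald test (adjusted p = 0.0203), with DESeq2's size factors (0.0279), library size only (0.0125) or upper-quartile scaling (0.0371), and with no filter (0.00065) or at least 10 counts in every library (0.0156), so its call lies at the threshold. At 24 h it (−0.18) was called by library size only (−0.25), with upper-quartile scaling (−0.24), with no filter (−0.26), with at least 10 counts in every library (−0.25) and without KG-1a 8AA replicate B (−0.34) or KG-1a untreated replicate B (−0.27), SLC38A1 (0.51) without KG-1a 8AA replicate B (0.54) or MV4-11 untreated replicate B (0.74), and SLC7A11 (−0.19) without KG-1a 8AA replicate A (−0.51).

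ATF4 and 23 of its textbook targets outside the member list were called mostly higher with 8CA at 24 h and mostly lower with 8AA. In KG-1a at 24 h, of 21 tested, 19 were called higher and 1 lower with 8CA (median log2 fold change 1.31), and 1 higher and 18 lower with 8AA (median −0.63). In MV4-11, of 22 tested, 13 were higher and 1 lower with 8CA (median 0.40), and 0 higher and 13 lower with 8AA (median −0.34). At 24 h in KG-1a, 8CA moved 23.4% of all genes higher and 24% lower past the threshold, and 8AA moved 25.4% higher and 26.6% lower. In MV4-11 the shares were 21.2% and 22.7% for 8CA, and 13.9% and 15.3% for 8AA. At 8 h, 12 were called higher and 0 lower with 8CA in KG-1a, against 0 higher and 4 lower in MV4-11, and with 8AA 1 higher and 13 lower in KG-1a and 1 higher and 11 lower in MV4-11. The 8 h shares of all genes called higher and lower with 8CA were 0.7% and 0.181% in KG-1a and 4.58% and 5.77% in MV4-11. With 8AA they were 16.7% and 18% in KG-1a and 13.6% and 15.6% in MV4-11. ATF4 itself had 362.0 and 369.7 CPM untreated, 802.3 and 784.9 CPM with 8CA and 240.9 and 203.7 CPM with 8AA in KG-1a at 24 h, so the 3 groups stand apart. Its log2 fold change was 1.12 (SE 0.0595) with 8CA and −0.72 (SE 0.0604) with 8AA there, and 0.59 (SE 0.0472) and −0.33 (SE 0.0478) in MV4-11. ASNS, which makes asparagine, changed by 2.29 and −0.74 in KG-1a and by 0.91 and −0.48 in MV4-11. CHAC1, which breaks down glutathione, changed by 3.92 and −2.79 in KG-1a and by 1.57 and −0.77 in MV4-11, and TRIB3, a pseudokinase, by 1.72 and −0.85 and by 0.68 and −0.95. DDIT3, the stress factor CHOP, went against the pattern with 8AA: it was higher in KG-1a at 24 h (0.89, SE 0.198) and not called in MV4-11 (−0.05), and it was higher with 8CA in both (2.41 and 0.89). The greatest called change of the list at 24 h was that of STC2, a secreted glycoprotein, in KG-1a with 8CA (4.19) and of PHGDH, the first enzyme of serine synthesis, in MV4-11 with 8AA (−1.10). The list was written with earlier results of these data known, so its direction is no independent support.

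The genes of the antioxidant response had smaller median changes. Of NRF2, BACH1 and 12 NRF2 targets in KG-1a at 24 h, 13 tested, 6 were called higher and 1 lower with 8CA (median 0.08; 23.4% and 24% of all genes) and 1 higher and 7 lower with 8AA (median −0.22; 25.4% and 26.6% of all genes). In MV4-11, of 14 tested, 4 were higher and 6 lower with 8CA (median −0.10; 21.2% and 22.7% of all genes) and 0 higher and 5 lower with 8AA (median −0.20; 13.9% and 15.3% of all genes). NFE2L2, the gene of NRF2, changed by 0.23 and BACH1, a repressor of the same elements, by 0.34 with 8CA in KG-1a, and by 0.13 and 0.22 in MV4-11, all 4 called. With 8AA, BACH1 was called higher in KG-1a (0.18) and NFE2L2 was not (0.05). The greatest called changes of the list at 24 h were FTH1, the ferritin heavy chain, in KG-1a with 8CA (0.69) and OSGIN1 with 8AA (−0.93), and TXN, thioredoxin (−0.52), and GCLM, a subunit of glutathione synthesis (−0.43), in MV4-11 with 8CA and 8AA. MYC, a factor that binds E-boxes, was higher at 24 h with 8CA in MV4-11 (0.34, SE 0.0445) and KG-1a (0.31, SE 0.059), lower with 8AA in KG-1a (−0.64, SE 0.0598) and not called with 8AA in MV4-11 (0.09, adjusted p = 0.158). At 8 h MYC was called lower with 8AA in MV4-11 (−0.44) and KG-1a (−0.90), and not called with 8CA (−0.13 and 0.05).

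The counts of other amino acid transporters at 24 h are read against the shares of all genes called higher and lower: 23.4% and 24% for 8CA and 25.4% and 26.6% for 8AA in KG-1a, 21.2% and 22.7% for 8CA and 13.9% and 15.3% for 8AA in MV4-11. Of 29 further genes of the plasma membrane, 5 were tested in KG-1a, of which 1 was higher and 3 lower with 8CA at 24 h (median −0.50) and 1 higher and 2 lower with 8AA (median 0.08). In MV4-11 7 were tested, with 2 higher and 3 lower with 8CA (median −0.36) and 1 higher and 2 lower with 8AA (median 0.03). The greatest called changes were SLC1A3, a glutamate transporter, with 8CA (−1.08) and SLC7A7, a light chain for cationic amino acids, with 8AA (0.56) in MV4-11, and SLC38A5, a glutamine transporter, in KG-1a (−0.64 for 8CA, −0.93 for 8AA). Of 9 lysosomal transporters, 1 was higher and 2 lower with 8CA among the 8 tested in KG-1a, 0 higher and 3 lower with 8AA, and 2 higher with 3 and 2 lower among the 9 tested in MV4-11, where SLC36A4 changed by −0.44 and −0.39. In KG-1a SLC36A4 changed by −0.51 with 8CA, and SLC36A1 by −0.40 with 8AA. Of 12 mitochondrial carriers, 10 were tested in each line: 1 was called higher and 7 lower with 8CA in either line, and with 8AA 1 higher and 6 lower in KG-1a and 1 higher and 4 lower in MV4-11. The greatest of these changes were SLC25A22, a glutamate carrier (−0.62), and SLC25A15, the ornithine carrier (−0.96), in the 8CA and 8AA comparisons of KG-1a, and SFXN2 (−0.73) and SFXN1, a serine carrier (−0.51), in those of MV4-11.

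**Figure D5:**
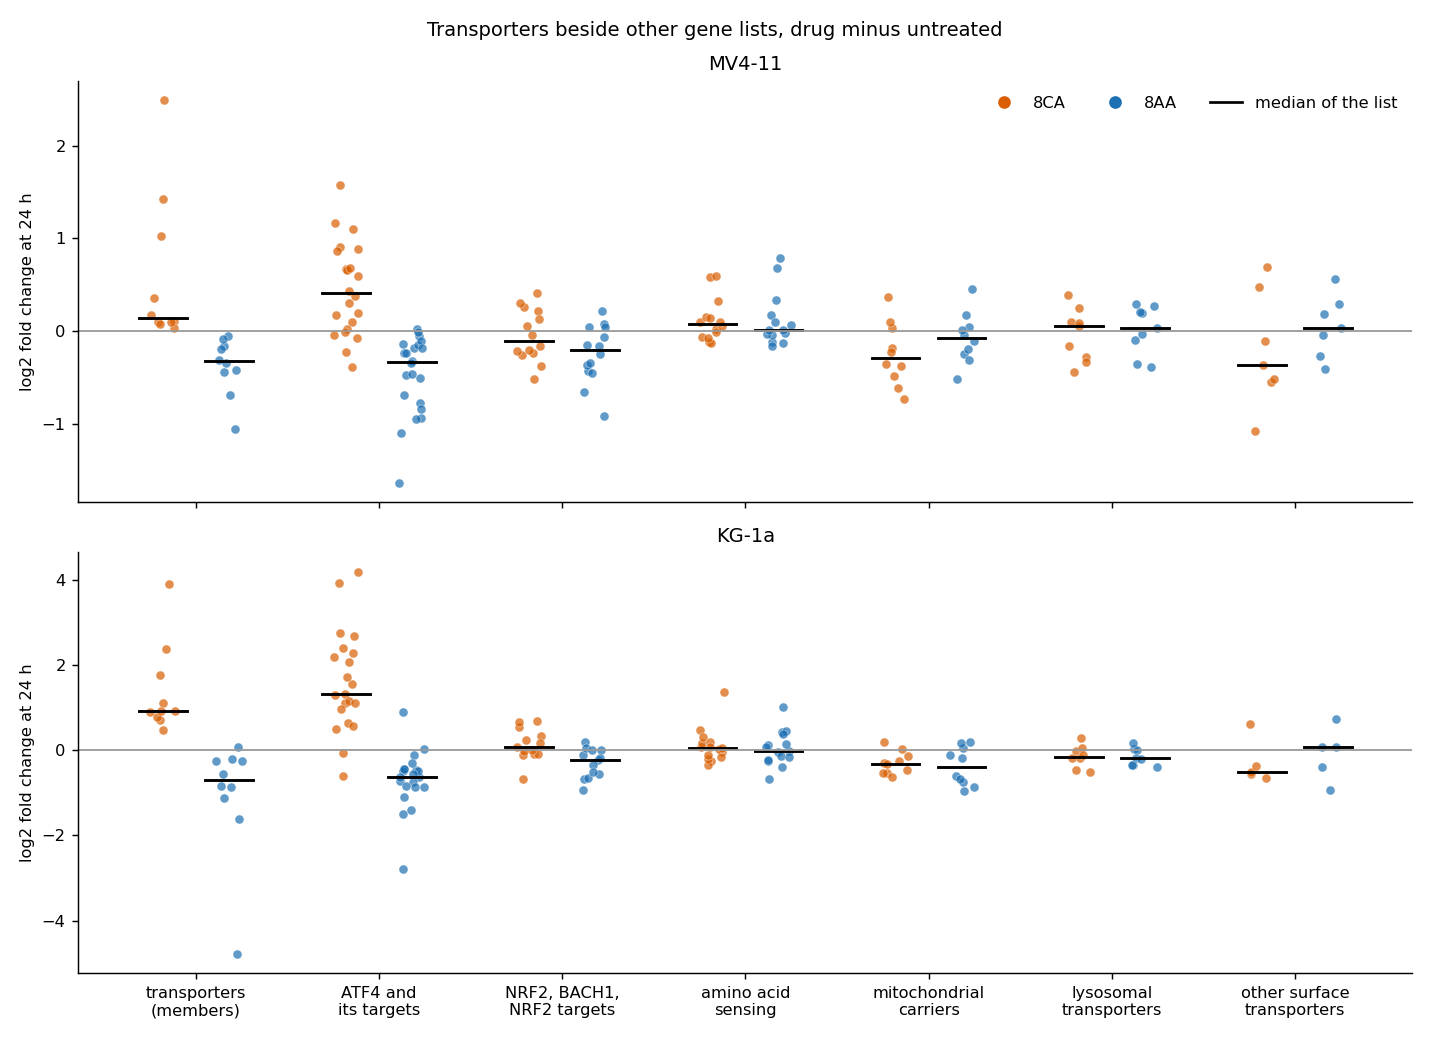
Log2 fold change at 24 h of each tested gene (points) of the transporter list and 6 other lists, with 8CA or 8AA, in MV4-11 and KG-1a. The bars are list medians: 0.91 and −0.70 for the transporters and 1.31 and −0.63 for ATF4 and its targets for 8CA and 8AA in KG-1a. The lowest 8AA point in KG-1a is SLC6A9, which rests on 0 and 1 reads.

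For each member, the gene whose level was most like it was sought among 9877 genes with a mean log2 CPM of at least 1 in both lines, by the Pearson correlation of log2 CPM centred on the mean of the cell line, over the 24 libraries. The libraries share the 12 groups, so the values describe a pattern over groups and carry no p. SLC1A5 and SLC7A1 were both most like GARS, glycyl-tRNA synthetase (r = 0.990, rho = 0.973, and r = 0.979, rho = 0.987), and SLC7A5 was most like YARS, tyrosyl-tRNA synthetase (r = 0.976, rho = 0.937). SLC3A2 was most like SESN2, a stress-induced leucine sensor (r = 0.955, rho = 0.913), and SLC43A1 like SHMT2, the mitochondrial serine hydroxymethyltransferase (r = 0.959, rho = 0.862). SLC7A11 was most like TUBE1 (epsilon tubulin, r = 0.966, rho = 0.914), SLC1A4 like KIF21B (a kinesin, r = 0.973, rho = 0.954) and SLC6A9 like PXK (r = 0.969, rho = 0.908). SLC38A1 and SLC38A2 had the lowest r, with CAPRIN1 (an RNA-binding protein, r = 0.930, rho = 0.923) and ZBTB21 (a zinc finger gene, r = 0.924, rho = 0.886).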

How the data were processed

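RNA of 24 libraries of MV4-11 and KG-1a cells was analysed. The authors deposited raw counts, the number of reads on each gene in each library, with positions and exon lengths. The labels name Trimmomatic, STAR 2.6.0, HTSeq 0.11.1 and edgeR, and the builds hg19 and hg38, without role or order. The sources used here do not give strand use or the treatment of multimapping reads, so reads of copies and overlapping genes may be split or shared. The copies SLC7A5P1 and SLC7A5P2 had 0 and 6 to 34 reads per library, SLC7A11-AS1 0 to 5. 

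Groups were taken from the labels. Genes were filtered with filterByExpr (minimum count 10; 12800 genes in MV4-11, 12711 in KG-1a, 14055 over both), scaled by TMM and tested by the quasi-likelihood F-test of edgeR 4.0.16 in R 4.3.3, with 1 coefficient per group and Benjamini-Hochberg adjustment. Steps were tested on simulated data. The members and lists were chosen with earlier results of these data known. All members are named, with regulators, the greatest called change of each list at 24 h and the gene most like each member. Alternatives were other scalings and filters, DESeq2 1.42.0, other sets of libraries, the replicate letter as a block, and leaving out each library. Intervals of read ratios cover counting error only.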

Additional observations from a re-analysis of the deposited data

Results flagged for a closer look

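The effect of a drug on 46 member values differed between hours or between lines by a test of the difference itself (edgeR's quasi-likelihood test, adjusted p below 0.05). No explanation is weighed. All are log2 values.

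Of these, 21 were differences between hours, the response at 24 h minus that at 8 h. For 8CA in KG-1a they were 1.27 for SLC7A11, 0.51 for SLC7A5, 0.83 for SLC3A2, 0.87 for SLC1A5, 0.75 for SLC1A4, 0.42 for SLC38A1, 0.30 for SLC38A2, 0.46 for SLC7A1, 2.86 for SLC6A9 and 0.83 for SLC43A1. For 8CA in MV4-11 they were 1.64 for SLC7A11, 0.63 for SLC7A5, 0.38 for SLC3A2, 0.30 for SLC1A5, 0.26 for SLC1A4, 1.04 for SLC38A1, 0.28 for SLC7A1 and 3.01 for SLC6A9. For 8AA they were 0.40 for SLC7A5 in MV4-11, and −0.27 for SLC38A2 and −0.23 for SLC7A1 in KG-1a. The shares of all genes called in these comparisons were 23.9% and 16.3% for 8CA in KG-1a and MV4-11, and 18.3% and 4.63% for 8AA. The count for 8AA in KG-1a, 2 of 10 members, is near its share.

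The others were differences between lines, the response of MV4-11 minus that of KG-1a. For 8CA at 8 h they were −1.32 for SLC7A11, −0.70 for SLC7A5, −0.95 for SLC3A2, −0.48 for SLC1A5, −0.30 for SLC1A4, −0.68 for SLC38A2 and −0.52 for SLC7A1. For 8CA at 24 h they were −0.93 for SLC7A11, −0.57 for SLC7A5, −1.39 for SLC3A2, −1.05 for SLC1A5, −0.77 for SLC1A4, 0.57 for SLC38A1, −0.79 for SLC38A2, −0.68 for SLC7A1, −1.40 for SLC6A9 and −0.71 for SLC43A1. For 8AA at 8 h they were 0.46 for SLC7A5, 0.40 for SLC1A5 and −0.66 for SLC38A2. For 8AA at 24 h they were 0.95 for SLC7A5, 0.71 for SLC1A5, −0.36 for SLC38A2, 0.54 for SLC7A1 and 4.62 for SLC6A9, a fitted value that rests on 0 and 1 reads in KG-1a and depends on the prior count. The shares of all genes called between lines were 1.15% and 11.2% for 8CA at 8 h and 24 h, and 11.1% and 22.3% for 8AA.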

How the results depend on the processing

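Of 3167 values of single members under an alternative, 2997 kept their side of the threshold, 106 lost a call and 64 gained one. Where the main or the alternative value was called, 0 turned direction. Turns of direction between uncalled values were not counted. The count of members called moved by over 1.5 times in 6 comparisons, and the cause was not tested. For the 8AA response by hour in KG-1a (2 called), it was 1 with at least 10 counts in every library, 1 by DESeq2's Wald test, 1 with DESeq2's size factors, 1 by library size only, 0 with upper-quartile scaling, and 0 to 5 without 1 library. For untreated KG-1a by hour (2 called), it was 1 with DESeq2's size factors, by library size only or with upper-quartile scaling, and 0 to 0 without 1 library. For 8AA against 8CA in MV4-11 at 8 h (7 called), it was 4 with only the 6 libraries of the line and hour, and 4 to 6 without 1 library. For 8CA in MV4-11 at 24 h (5 called), it was 8 by library size only and 8 with upper-quartile scaling. For the 8AA response by hour in MV4-11 (1 called), it was 2 by library size only, 4 with the replicate block, and 1 to 3 without 1 library. For untreated MV4-11 by hour (1 called), it was 2 with no filter on low counts, 4 with the replicate block, and 0 to 1 without 1 library. The labels do not say that the letters A and B pair libraries. The deviations of libraries with the same letter correlated between −0.117 and 0.161 over all pairs of groups, and at 0.132, 0.159 and 0.157 among the MV4-11 groups of 8 h, so a shared effect there cannot be told from 2 letters. Over all values the replicate block gained 11 calls and lost 1 (SLC1A4, 8CA between lines at 8 h, adjusted p = 0.063). At 8 h the replicate block called SLC1A4 with 8CA (0.0122) and SLC43A1 with 8AA (0.0284) in MV4-11, and SLC1A5 (0.0266) and SLC7A5 (0.0404) with 8CA in KG-1a. With 2 libraries a group, calls of small changes rest on single libraries, and SLC6A9 and SLC38A1 in MV4-11 on few reads.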

Other observations

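Of the enzymes that use the imported amino acids, at 24 h 3 were called higher and 3 lower with 8CA among the 9 tested in KG-1a, and 2 higher and 3 lower among the 10 tested in MV4-11. With 8AA 1 was higher and 6 lower in KG-1a, and 0 higher and 5 lower in MV4-11. At 24 h in KG-1a, 8CA moved 23.4% of all genes higher and 24% lower past the threshold, and 8AA moved 25.4% higher and 26.6% lower. In MV4-11 the shares were 21.2% and 22.7% for 8CA, and 13.9% and 15.3% for 8AA. The greatest called changes were those of ARG2, which splits arginine, in KG-1a with 8CA (log2 −1.10), ODC1, the first enzyme of polyamine synthesis, with 8AA (−1.15), GLUL, glutamine synthetase, in MV4-11 with 8CA (−0.56), and BCAT1, which transaminates branched-chain amino acids, with 8AA (−0.64).

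Of the genes of amino acid sensing, 4 were called higher and 3 lower with 8CA among the 15 tested in KG-1a at 24 h, and 4 higher and 5 lower with 8AA. In MV4-11 it was 5 higher and 0 lower, and 3 higher and 1 lower, among 14. In KG-1a these counts are close to the shares of all genes given above. The greatest called changes were PPP1R15A, a phosphatase subunit of the integrated stress response (1.37 with 8CA), and SESN3, a sestrin (1.02 with 8AA), in KG-1a, and RRAGD, a Rag GTPase (0.59 with 8CA), and CASTOR1, an arginine sensor (0.78 with 8AA), in MV4-11.

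In KG-1a at 24 h CD3E, a T cell receptor subunit, was at 37.9 and 38.2 CPM in untreated cells, at 32.4 and 33.7 CPM under 8CA and at 81.7 and 69.8 CPM under 8AA (log2 1.00, SE 0.0873). COL3A1, a fibrillar collagen, had 7 and 6 reads in untreated cells, 5 and 5 under 8CA and 63 and 55 under 8AA (log2 2.95, SE 0.301), and MPO, myeloperoxidase, had 3 and 12, 8 and 11, and 54 and 37 reads (log2 2.37, SE 0.384). CD3E and MPO had the greatest called changes of their lists there. Of 4 T and NK cell markers tested with 8AA, 1 was called higher and 0 lower (median log2 0.02). Of 9 myeloid markers tested it was 3 higher and 0 lower (median 0.16), where 25.4% and 26.6% of all genes were called higher and lower. The B cell markers summed to no more than 7.002 CPM in any library, and the erythroid markers to no more than 2.06 CPM.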
